A study of Mus musculus with 16 samples.

Results

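The genes described here make up the cholesterol export pathway of macrophages and its sterol-sensing control, chosen by symbol from the deposited table: Abca1, Abcg1, Mylip, Apoe, Lpcat3, Nr1h2, Nr1h3, Rxra, Npc1 and Npc2. They are 10 of the 21965 genes in the table, and all 10 had at least 10 counts in all 16 libraries, so none was left unmeasured. RNA was sequenced from RAW264.7, a mouse macrophage line established from a virus-induced leukaemia, with 4 libraries in each of 4 groups. Control cells received vehicle, which was culture medium. The oxLDL group received oxidised low-density lipoprotein at 50 µg/ml, the tirzepatide group received tirzepatide, for which the labels write 100 nmol/ml (nmol/l may be meant), and the combination group received both. Tirzepatide is a peptide used against diabetes and obesity that acts on both incretin receptors, those for GIP and for GLP-1. No genetic change is stated for any group, no exposure time is given, and all libraries come from 1 cell line. Nothing in the labels says that the numbered libraries of a group were separate cultures, and each p-value is therefore set against the spread of these libraries alone, which may be technical.

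Cells that take in more cholesterol than they use convert part of it to oxysterols, which bind the liver X receptors LXRβ (Nr1h2) and LXRα (Nr1h3). Each works as a pair with a retinoid X receptor such as RXRα (Rxra) on DNA repeats and switches on genes that remove or buffer cholesterol. Among these targets, Abca1 hands cholesterol to lipid-poor apolipoprotein A-I, Abcg1 hands it to HDL, Apoe encodes a secreted lipid acceptor, Mylip (also called IDOL) is a ubiquitin ligase that limits lipoprotein uptake, and Lpcat3 builds polyunsaturated phospholipids into membranes. Npc2 and Npc1 act upstream of the sensor, since they carry cholesterol that arrives with lipoproteins out of the lysosome. OxLDL is the modified lipoprotein that macrophages take up when they become foam cells.

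The libraries held 15877278 to 17336019 expected counts and 12954 to 13276 genes above 0. All 10 macrophage markers (Adgre1, Csf1r, Cd68, Lyz2 and others) were present. Their summed level was 17848 to 19089 TPM (transcript abundance divided by transcript length and scaled to library depth) in controls. It was 22608 to 23970 with oxLDL, 21122 to 22012 with tirzepatide and 22190 to 24491 with both, so every treated library lay above every control. Most of the sum was Lyz2, at 15150 to 21333 TPM over the 16 libraries. No other marker passed 963 TPM, so the sum mainly follows Lyz2. Genes of pancreatic acinar cells, which macrophages do not make, summed to 19.7 to 233 TPM in the controls, highest in controls 1 and 2 (233 and 129 TPM), against 5.52 to 54.9 TPM in the other groups. Of 10 hepatocyte markers 5 were at 0 in every library (Apoa1, Apoa2, Apoc3, Ttr and Fga) and the 10 summed to at most 4.43 TPM, while adipocyte markers summed to at most 0.614 TPM and smooth muscle and fibroblast markers to at most 2.19 TPM. One library stood apart for the genes described here: in combination library 2, Abca1, Abcg1, Mylip and Npc1 lay outside the range of the other 3 combination libraries. Of these 4 genes in TPM, Abcg1 and Npc1 lay within the range of the tirzepatide libraries, Abca1 below it (157 against a lowest value of 164) and Mylip above it (38.0 against a highest value of 37.4). The comparisons of Abca1, Abcg1 and Mylip that use the combination group are given with and without that library. Since it was picked out by these genes' own values, results without it are descriptions and add no support.

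The promoters of Abca1 and Mylip are shown because both genes fell after oxLDL and are LXR targets with an entry in the RefSeq promoter table, which is on build GRCm38.p6 and not on the build of the deposited counts. Each run is the 250 bases before the annotated start, read 5′ to 3′ on the gene's strand. Abca1 lies on the minus strand and its window is chr4:53159896-53160145, and Mylip lies on the plus strand with its window at chr13:45389492-45389741. Capitals mark the best match to the DR4 repeat that LXR and RXR pairs bind.

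Abca1 promoter: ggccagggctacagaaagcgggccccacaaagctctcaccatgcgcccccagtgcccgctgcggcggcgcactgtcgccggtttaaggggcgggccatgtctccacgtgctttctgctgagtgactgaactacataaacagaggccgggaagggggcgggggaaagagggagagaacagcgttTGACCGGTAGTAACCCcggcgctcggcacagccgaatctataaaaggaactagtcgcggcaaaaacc
Mylip promoter: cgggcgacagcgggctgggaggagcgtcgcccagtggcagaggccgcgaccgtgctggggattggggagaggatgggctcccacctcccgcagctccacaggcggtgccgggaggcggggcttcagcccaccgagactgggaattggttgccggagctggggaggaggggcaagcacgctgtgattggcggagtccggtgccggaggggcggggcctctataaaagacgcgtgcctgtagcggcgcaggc

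The search took the repeat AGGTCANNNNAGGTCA on both strands with up to 3 mismatches among its 12 scored bases, and windows of this length held such a match in 18.51% of 32851 RefSeq promoters. In Abca1 it covers bases 67 to 52 before the start on the opposite strand. Read in the direction of the repeat, and counted from 1 at its 5′ end with the base of the searched repeat first, the site differs by A1G, C5T and A11C.

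Abca1 site: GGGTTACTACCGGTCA
Rxra site: GTGGCAGGAAAGGTCA

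The Abca1 window also holds the E-box CACGTG, which 6.021% of the windows have, 147 bases before the start. The other match was in the window of 1 of the annotated Rxra starts (chr2:27709042-27709291, plus strand), at bases 58 to 43 before it, with A1G, G2T and T4G. No match at this stringency was in the Mylip window, nor in those of Apoe, Lpcat3, Nr1h2, Nr1h3 and Npc2. In all, 12 windows of 8 genes were searched, without Abcg1 and Npc1.

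Both cholesterol exporters were lower after oxLDL, and so was Mylip. Abca1 read 151, 153, 156 and 170 TPM in the 4 controls and 108, 105, 116 and 114 TPM in the 4 oxLDL libraries. The groups did not overlap. The tirzepatide libraries read 167, 164, 173 and 170 TPM, at the upper end of the controls or above it. The combination libraries read 113, 157, 125 and 120 TPM, so that 3 of them sat near the oxLDL level and library 2 within the control range. As normalised counts, on which all tests were run, Abca1 fell by 30.1% after oxLDL against control (log2 change -0.52, SE 0.06, 95% interval -36.1% to -23.4%, adjusted p = 1.3e-05 by edgeR). A level in TPM is divided by transcript length and a log2 change comes from counts alone, so the scales are not interchangeable. In a bulk sample, fewer cells that make a transcript and less of it per cell cannot be told apart.

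Abcg1 followed the same order. Its controls read 206, 219, 233 and 231 TPM and its oxLDL libraries 153, 154, 166 and 160 TPM, again without overlap. The tirzepatide libraries were at 195, 210, 223 and 214 TPM. The combination libraries were at 128, 203, 157 and 140 TPM, with library 2 near the tirzepatide group and library 1 the lowest of all 16. Abcg1 fell by 29.6% after oxLDL (log2 change -0.51, SE 0.08, 95% interval -37.3% to -20.9%, adjusted p = 0.000337 by edgeR). Per transcript length the cells held more Abcg1 than Abca1 in every library, with a ratio of 1.32 between the mean levels and a range of 1.14 to 1.49.

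Mylip, a much less abundant transcript, moved in the same way. Controls read 35.7, 36.4, 35.1 and 36.0 TPM and oxLDL libraries 23.9, 25.8, 27.5 and 25.7 TPM. Tirzepatide libraries read 35.5, 35.4, 37.4 and 34.9 TPM, which is the control range or just past it. Combination libraries read 25.3, 38.0, 28.6 and 26.0 TPM, and library 2 was the highest of all 16. The fall after oxLDL was 28.6% in counts (log2 change -0.49, SE 0.09, 95% interval -36.8% to -19.4%, adjusted p = 0.000841 by edgeR).

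**Figure D1:**
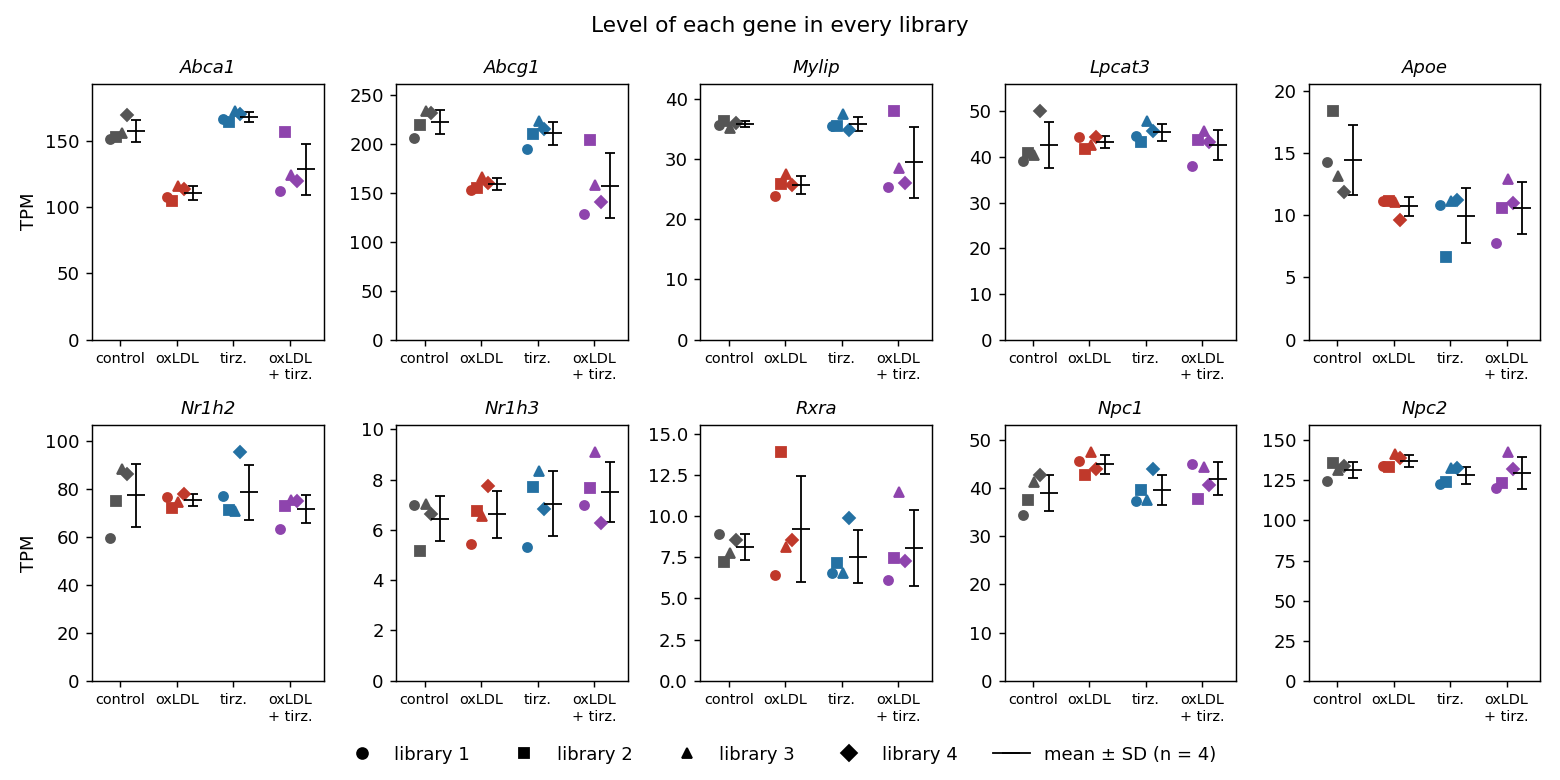
Level of each of the 10 genes in TPM (vertical axis, from 0, scaled per gene) in every library of the control, oxLDL, tirzepatide and combination groups, with the marker shape giving the library number and the bar the mean ± SD (n = 4). Abca1, Abcg1 and Mylip sit lower in all 4 oxLDL libraries than in any control, and combination library 2 (square) sits apart from the other 3.

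The remaining LXR targets among the 10 did not pass the test. Apoe was measured at low counts, 62 to 178 per library. Its controls read 14.3, 18.4, 13.2 and 11.9 TPM and its oxLDL libraries 11.1, 11.1, 11.1 and 9.60 TPM. The tirzepatide libraries read 10.9, 6.67, 11.2 and 11.2 TPM and the combination libraries 7.81, 10.6, 12.9 and 11.0 TPM. Every oxLDL and tirzepatide library lay below the lowest control in TPM, whereas the normalised counts of those groups overlapped with the controls. The log2 change was -0.49 (SE 0.18, adjusted p = 0.137 by edgeR) for oxLDL and -0.55 (SE 0.18, adjusted p = 0.0896 by edgeR) for tirzepatide, each against control. Control 2 held the highest Apoe value, and without it the oxLDL value was -0.34 (adjusted p = 0.431 by edgeR). Controls 1 and 2 were the libraries with the most acinar RNA, and without both the value was -0.27 (adjusted p = 0.581 by edgeR). The part of that RNA in the Apoe values was not tested. Lpcat3 ranged from 38.0 to 50.0 TPM over the 16 libraries, with means of 42.6 ± 5.00, 43.3 ± 1.25, 45.4 ± 1.92 and 42.6 ± 3.24 TPM (SD, n = 4) in the control, oxLDL, tirzepatide and combination groups. Its log2 change after oxLDL was 0.06 (SE 0.06), with a 95% interval of -3.91% to 12.7%.

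Nr1h2 was by far the more abundant of the receptor genes. Its levels were 77.2 ± 13.1 TPM in controls, 75.1 ± 2.53 with oxLDL, 78.5 ± 11.5 with tirzepatide and 71.6 ± 5.74 with both (SD, n = 4). Control values ran from 59.7 to 88.3 TPM, a span that held all oxLDL and combination libraries and 3 of the 4 tirzepatide libraries. Nr1h3 was at 6.45 ± 0.892, 6.62 ± 0.943, 7.04 ± 1.297 and 7.50 ± 1.19 TPM in the same order, from 78 to 129 counts per library. The mean level of Nr1h2 per length was 11.0 times that of Nr1h3, with 8.29 and 14.6 times as the extremes over the libraries. After oxLDL the log2 change of Nr1h2 was -0.07 (SE 0.08, 95% interval -15.3% to 7.39%) and that of Nr1h3 0.04 (SE 0.16, 95% interval -18.2% to 29.2%), so a change as large as that of Abca1 lay outside both intervals. Rxra read 8.94, 7.20, 7.79 and 8.56 TPM in controls and 6.41, 13.9, 8.10 and 8.55 TPM with oxLDL. The value of 13.9 came from 289 counts and that of 8.55 from 308 counts, and the reason for this mismatch was not tested. In normalised counts the oxLDL libraries differed little (16.1 to 18.3 CPM, counts scaled to library size). Its log2 change was 0.15 (SE 0.08, adjusted p = 0.304 by edgeR). Per length, the related RXRβ gene Rxrb, named after its values were seen, was 8.48 times as abundant as Rxra.

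The lysosomal cholesterol carriers did not follow the exporters. Npc1, the membrane protein that receives cholesterol from Npc2, read 34.5, 37.5, 41.3 and 42.7 TPM in controls and 45.6, 42.7, 47.5 and 44.0 TPM with oxLDL. It read 37.2, 39.6, 37.6 and 44.1 TPM with tirzepatide and 45.0, 37.7, 44.4 and 40.6 TPM with both. Every oxLDL library was above every control, but the log2 change of 0.20 (SE 0.06, 95% interval 5.46% to 25.2%) just missed the threshold (adjusted p = 0.0558 by edgeR). It passed in 8 of 25 other settings, among them the fits without control 4, tirzepatide 4, combination 1 or combination 2 (adjusted p = 0.0446, 0.0384, 0.0365 and 0.0397 by edgeR). Without controls 1 and 2 it was 0.12 (adjusted p = 0.406 by edgeR). Npc2, the soluble carrier of the lysosomal lumen, was at 131.6 ± 4.82, 137.0 ± 3.92, 128.2 ± 5.34 and 129.5 ± 10.0 TPM (SD, n = 4) in the 4 groups, with a log2 change after oxLDL of 0.05 (SE 0.04, 95% interval -2.39% to 10.1%).

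Counted over the pathway, 3 of the 10 genes were lower after oxLDL and none was higher, where 2.05% of the 11319 tested genes were called lower, 2.49% higher and 4.54% in either direction. In CPM, 4 of the 10 had groups that did not overlap, against 11% of the tested genes. The median log2 change of the 10 was -0.01 and that of all tested genes 0.00, so the 3 that fell stood beside 7 genes with values on both sides of 0. Of these 7, Apoe and Npc1 had an unadjusted p under 0.05 by edgeR. With the 3 called that makes 5 of the 10, beside 2042 of the 11319 tested genes. The summed level of macrophage markers, most of it Lyz2, was higher in every oxLDL library than in any control. Its part in these falls was not tested. The call of Abca1, Abcg1 and Mylip was kept in all 25 other settings for this comparison.

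With tirzepatide present, oxLDL gave the same direction for the exporters. In the combination against tirzepatide, Abca1 fell by 22.6% (log2 change -0.37, SE 0.06, edgeR adjusted p = 0.00238), and in both scales no combination library reached the tirzepatide range, which made it 1 of the 10 without overlap in CPM, as for 6.94% of all tested genes. Abcg1 had -0.42 (SE 0.08, adjusted p = 0.00587 by edgeR), with combination library 2 inside the range of the tirzepatide libraries. Mylip had -0.26 (SE 0.08), which did not pass (adjusted p = 0.138 by edgeR). So 2 of 10 genes were lower, beside 0.777% of all tested genes called lower and 1.54% in either direction. Without combination library 2 the values were -0.49, -0.58 and -0.41, and all 3 passed (adjusted p = 6.14e-09, 1.38e-08 and 4.45e-05 by edgeR). These p-values add no support, as the library was left out for its values of these same genes. Without combination library 4, Abcg1 was -0.37 and missed the threshold (adjusted p = 0.0503 by edgeR). The other 7 genes had log2 changes between -0.07 (Lpcat3) and 0.11 (Nr1h3), none called.

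**Figure D2:**
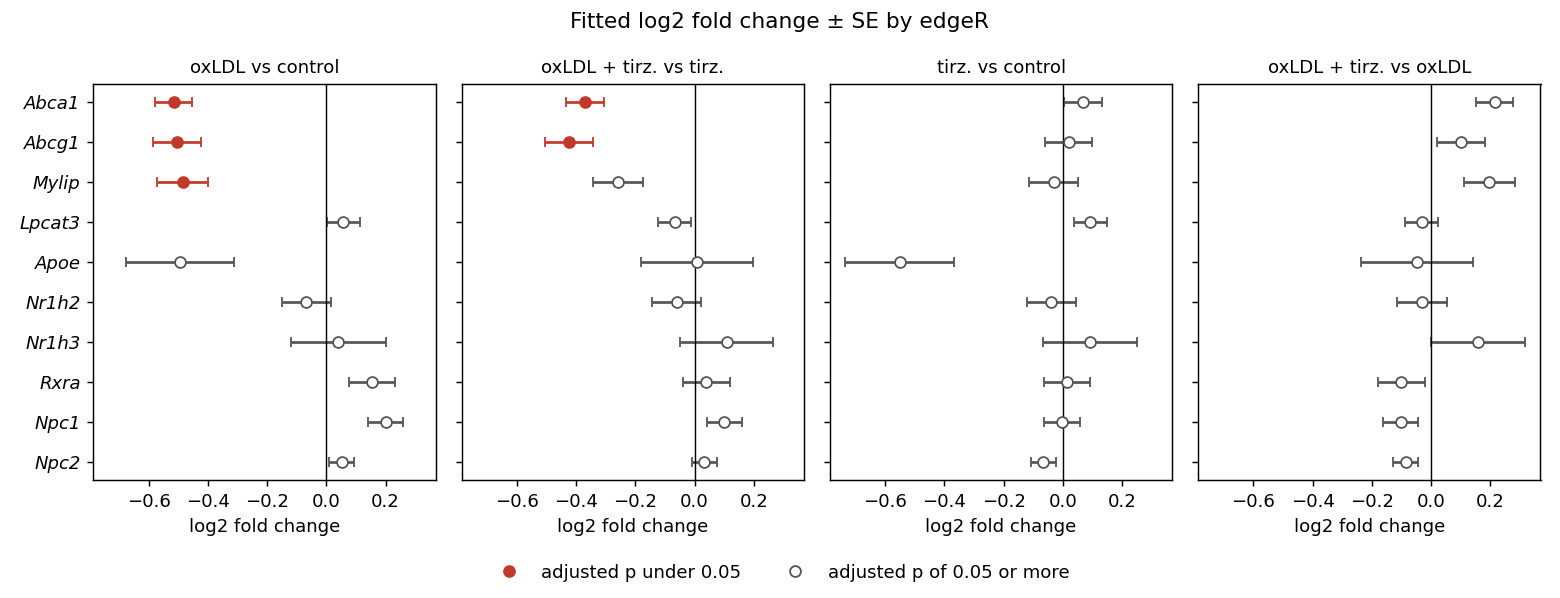
Log2 change of each of the 10 genes from edgeR (horizontal axis) with its SE as bars, in 4 comparisons between groups, filled where the adjusted p is under 0.05. Only Abca1, Abcg1 and Mylip are filled, always to the left of 0, and none of the 10 is filled for tirzepatide against control or for the combination against oxLDL.

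Tirzepatide alone changed none of the 10 by the edgeR test, while 4.08% of all tested genes were called in that comparison. At an unadjusted p under 0.05 there was 1 gene of the 10, Apoe, and DESeq2 and limma after quantile normalisation called 0 of the 10. The intervals bound what a change could have been: -4.18% to 14.8% for Abca1, -9.70% to 13.7% for Abcg1 and -13.0% to 10.2% for Mylip. The interval of Apoe, -47.5% to -11.2%, was wider and lay below 0, and with no filter on low counts its adjusted p was 0.046 by edgeR. Without control 2 the log2 change of Apoe was -0.39 (adjusted p = 0.329 by edgeR), and without controls 1 and 2, which held the most acinar RNA, -0.33 (adjusted p = 0.471). For the receptors the intervals were -13.5% to 9.60% (Nr1h2), -15.1% to 33.7% (Nr1h3) and -9.71% to 13.0% (Rxra). Npc1 and Npc2 had log2 changes of -0.0032 and -0.07.

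Adding tirzepatide to oxLDL moved none of the 10 past the threshold either, in a comparison where 0.0353% of all tested genes were called. Abca1 and Mylip were the 2 genes of the 10 with an unadjusted p under 0.05, and DESeq2 and limma called 0. Abca1 was at 594, 815, 628 and 611 CPM with both agents and at 568, 554, 578 and 583 with oxLDL, so the groups did not overlap, as for 5.84% of all tested genes. Its log2 change of 0.21 (SE 0.06) gave an adjusted p of 0.303 by edgeR, and without combination library 2 it was 0.10 (adjusted p = 0.469 by edgeR). Mylip had 0.20 (SE 0.09, adjusted p = 0.447 by edgeR) and 0.04 without that library. Abcg1 had 0.10 (SE 0.08) and turned to -0.05 without it. Nr1h3 (0.16, SE 0.16) and Npc1 (-0.10, SE 0.06, and -0.059 without that library) did not pass. Whether the response to oxLDL differed with tirzepatide was tested as an interaction, which called none of the 10 (smallest adjusted p = 0.517 by edgeR, 0 at an unadjusted p under 0.05, 0 by DESeq2 or limma) beside 0.0707% of all tested genes. Its values were 0.15 (SE 0.09) for Abca1, 0.08 (SE 0.11) for Abcg1 and 0.23 (SE 0.12) for Mylip. Without combination library 2 they were 0.033, -0.070 and 0.076, so that the sign of Abcg1 turned and the other values shrank.

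Against control, the combination lowered Abca1 (-0.30, SE 0.06, adjusted p = 0.00412 by edgeR), Abcg1 (-0.40, SE 0.08, adjusted p = 0.00272 by edgeR) and Mylip (-0.29, SE 0.08, adjusted p = 0.0325 by edgeR). That is 3 of 10 genes, beside 4.25% of all tested genes called lower and 8.94% in either direction. The Mylip call was lost without control 2 or 3 (adjusted p = 0.0886 and 0.0557 by edgeR) and without combination library 1, 3 or 4 (0.120, 0.0768 and 0.117), and its log2 change was -0.45 without combination library 2. Without that library, picked out by these genes' own values, Abca1 had -0.42 and Abcg1 -0.56 (adjusted p = 4.64e-08 and 2.08e-08 by edgeR). For Apoe the log2 change was -0.54 with an SE of 0.18 and missed the threshold (edgeR adjusted p = 0.0676). It passed in 4 of 25 other settings. Among these were the fits without control 4 or tirzepatide 2 (edgeR adjusted p = 0.0415 and 0.0478). The others were the fit with no filter on low counts (edgeR adjusted p = 0.0344) and DESeq2 (adjusted p = 0.0411). Without control 2 the log2 change of Apoe was -0.39 (edgeR adjusted p = 0.269), and without controls 1 and 2 it was -0.32 (0.363). The comparisons against control share the same 4 control libraries.

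**Figure D3:**
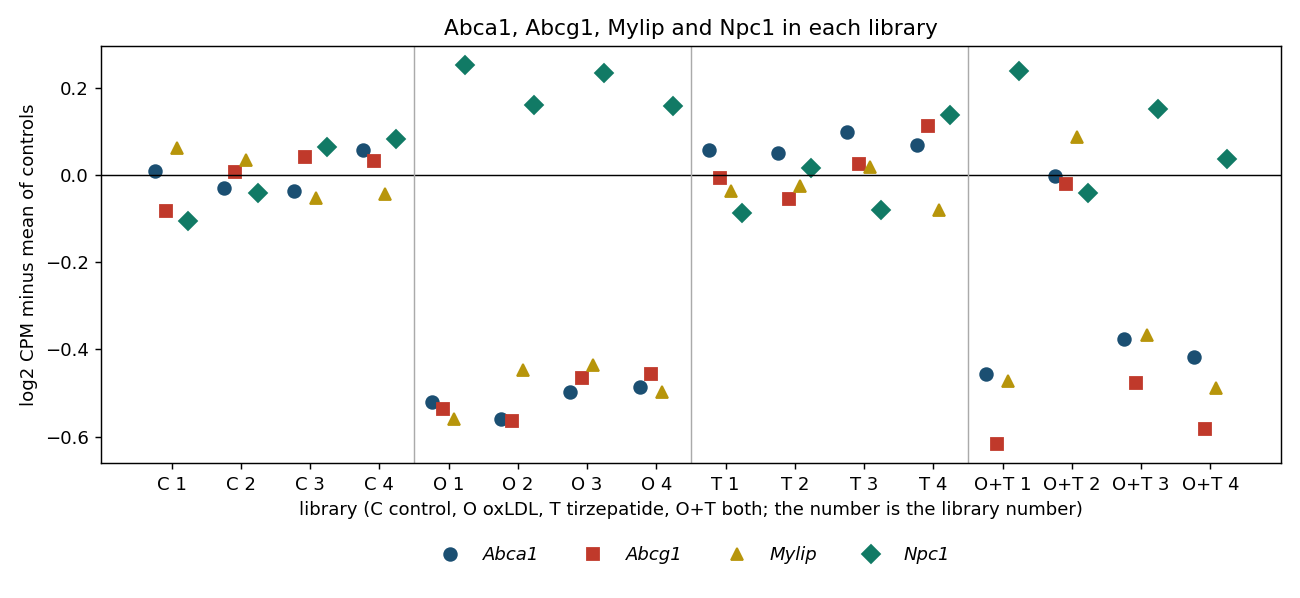
Log2 CPM of Abca1, Abcg1, Mylip and Npc1 in each library minus the mean of the controls (vertical axis), with libraries ordered by group along the horizontal axis. The first 3 genes sit together at about the same depth below 0 in the oxLDL libraries, and in combination library 2 they return to the control level while Npc1 drops to just below 0.

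Across the groups, Abca1, Abcg1 and Mylip had similar profiles. Across the 16 libraries, Pearson's r of log2 CPM was 0.965 for Abca1 and Abcg1, 0.957 for Abca1 and Mylip and 0.942 for Abcg1 and Mylip. Over the 15 libraries without combination library 2, r was 0.964, 0.964 and 0.946. With each group's mean taken out, r was 0.931, 0.905 and 0.839 over the 16 libraries but 0.493, 0.175 and -0.067 over those 15. The high values thus come from the differences between groups and from combination library 2. The next highest positive r among pairs of the 10 was 0.508, for Npc1 and Rxra. Larger in size were the negative values of Npc1 over the 16 libraries. They were -0.773 with Abca1, -0.689 with Abcg1 and -0.820 with Mylip. Without combination library 2 and with group means taken out, they were -0.048, 0.401 and -0.486. These are descriptions over libraries that share 4 group means, depth and processing. Among the 11318 other genes, those most like Abca1 were Scd2 (r = 0.979), Abcg1, Car2 (0.963), Mylip and Tnf (0.946), and those most like Abcg1 were Scd2 (0.983), Tnf (0.969), Abca1, Prkca (0.963) and Scd1 (0.960). Without combination library 2, Tnf was at rank 7 for Abca1 and Scd1 at rank 6 for Abcg1, and the others named stayed among the first 4. In all, 28 genes had an r of at least 0.9 with Abca1 and 33 with Abcg1. Scd2, a stearoyl-CoA desaturase, read 214, 224, 252 and 261 TPM in controls, 143, 138, 149 and 152 with oxLDL, 234, 232, 236 and 272 with tirzepatide and 144, 228, 148 and 150 with both. Combination library 2 again stood with the groups that had no oxLDL.

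Other known LXR targets were counted from a list, of which 13 of 23 genes were tested. The 10 others were too low in these cells, among them Lpl, Abcg5, Abcg8 and the apolipoproteins Apoc1 and Apoc2. After oxLDL none of the 13 was higher and 3 were lower: Scd2 (-0.70, SE 0.09, adjusted p = 1.3e-05 by edgeR), its relative Scd1 (-0.87, SE 0.17, adjusted p = 0.00255) and Srebf1, which encodes the transcription factor of fatty acid synthesis (-0.33, SE 0.09, adjusted p = 0.0346). Expected counts of Scd1 and Scd2 are fractional. Whether reads were shared between these similar genes was not tested, so the split between them is uncertain. Among all tested genes 2.05% were called lower after oxLDL and 2.49% higher. The list had a median log2 change of -0.07, beside 0.00 for all tested genes. Tirzepatide alone called none of the 13, beside 4.08% of all tested genes.

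Cd5l, a macrophage-secreted protein and LXR target, did not follow this order, and is named here after its values were seen. It read 5.28, 5.18, 6.54 and 5.36 TPM in controls, 5.53, 5.73, 5.96 and 4.41 with oxLDL, 5.31, 5.21, 6.31 and 7.82 with tirzepatide and 1.97, 3.77, 2.97 and 2.80 with both, so all 4 combination libraries lay below the other 12. Its log2 change was -1.07 (SE 0.18, adjusted p = 0.00234 by edgeR) for the combination against tirzepatide and -0.96 (SE 0.18, adjusted p = 0.00172) against control. Against oxLDL it was -0.91 (SE 0.18, adjusted p = 0.0847 by edgeR), and -1.07 without combination library 2 (adjusted p = 0.0463). The interaction did not pass (-1.02, SE 0.25, adjusted p = 0.127 by edgeR). In these 2 comparisons, against tirzepatide and against control, the list had 3 and 4 lower genes: Cd5l, Scd2 and Scd1 in both, and Srebf1 in the latter. The shares of all tested genes called lower there were 0.777% and 4.25%.

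Of 16 tested RXR isoforms, coactivators and corepressors (18 listed), the partners of the receptors, none was called in any comparison. Without combination library 2, Ncor1 and Ppargc1b passed, both named after their values were seen. The corepressor Ncor1 was higher for tirzepatide against control (0.14, adjusted p = 0.044 by edgeR), beside 300 of 11406 genes called higher. Ppargc1b was lower in the combination against control (-0.47, adjusted p = 0.0314 by edgeR), beside 519 of 11406 genes called lower. In the latter comparison 1 gene of the list was also lower without controls 1 and 2, beside 486 of 11486 genes. Of 11 tested genes of oxysterol synthesis, cholesterol esterification and other export routes (16 listed), 2 were higher after oxLDL and none lower. These were Nceh1 (0.36, SE 0.07, adjusted p = 0.00368 by edgeR), a cholesteryl ester hydrolase, and Soat1 (0.21, SE 0.04, adjusted p = 0.00658), which forms the esters stored in foam cells. Over all tested genes 2.49% were called higher after oxLDL and 2.05% lower. Without controls 1 and 2, 1 gene of the list was higher, beside 148 of 11486 genes. In the other comparisons the only call of this list was Lipe, a hormone-sensitive lipase, lower in the combination against control (-0.25, SE 0.08, adjusted p = 0.048 by edgeR) and named after its values were seen. That comparison called 4.25% of all tested genes lower. Ch25h, Cyp46a1 and Cyp7b1, which form or clear oxysterols, were too low to test. The oxysterol-forming enzyme Cyp27a1, named after its values were seen, was tested and not called in any comparison.

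Genes of endolysosomal and membrane-contact sterol transport moved both ways after oxLDL, with 2 of 20 tested genes higher and 2 lower (22 listed), beside 2.49% of all tested genes called higher and 2.05% lower. Scarb2, also called LIMP-2, had 0.31 (SE 0.05, adjusted p = 0.000641 by edgeR) and Lamp2, a lysosomal membrane protein, 0.22 (SE 0.05, adjusted p = 0.0121). Gramd1b, which carries cholesterol from the plasma membrane to the endoplasmic reticulum, had -0.32 (SE 0.05, adjusted p = 8.61e-05 by edgeR) and the annexin Anxa6, named after its values were seen, had -0.21 (SE 0.06, adjusted p = 0.0282). Scarb2 rose from 42.2 ± 1.73 TPM to 52.5 ± 2.06 TPM and Gramd1b fell from 147 ± 8.78 TPM to 120 ± 7.95 TPM (SD, n = 4). In the combination against tirzepatide Lipa and Scarb2 were higher and Gramd1b lower, named after their values were seen. That comparison called 86 of 11319 tested genes higher and 88 lower. Lipa, the lysosomal acid lipase that frees cholesterol from its esters, had 0.23 there (SE 0.04, adjusted p = 0.00471 by edgeR). For tirzepatide alone 1 gene was called, the oxysterol-binding relative Osbpl2 (0.18, SE 0.05, adjusted p = 0.0376 by edgeR), beside 4.08% of all tested genes called, and none without controls 1 and 2.

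Of 16 tested SREBP2 targets and regulators (17 counted here), which serve cholesterol uptake and synthesis, none was higher after oxLDL and 1 was lower. The shares over all tested genes were 2.49% higher and 2.05% lower. Srebf2, which encodes SREBP2 itself, had -0.25 (SE 0.07, adjusted p = 0.0497 by edgeR). Tirzepatide alone called 1 gene of this list, the cholesterol synthesis enzyme Dhcr7 (-0.38, SE 0.09, adjusted p = 0.014 by edgeR), beside 4.08% of all tested genes, and none of the list was called without controls 1 and 2.

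**Figure D4:**
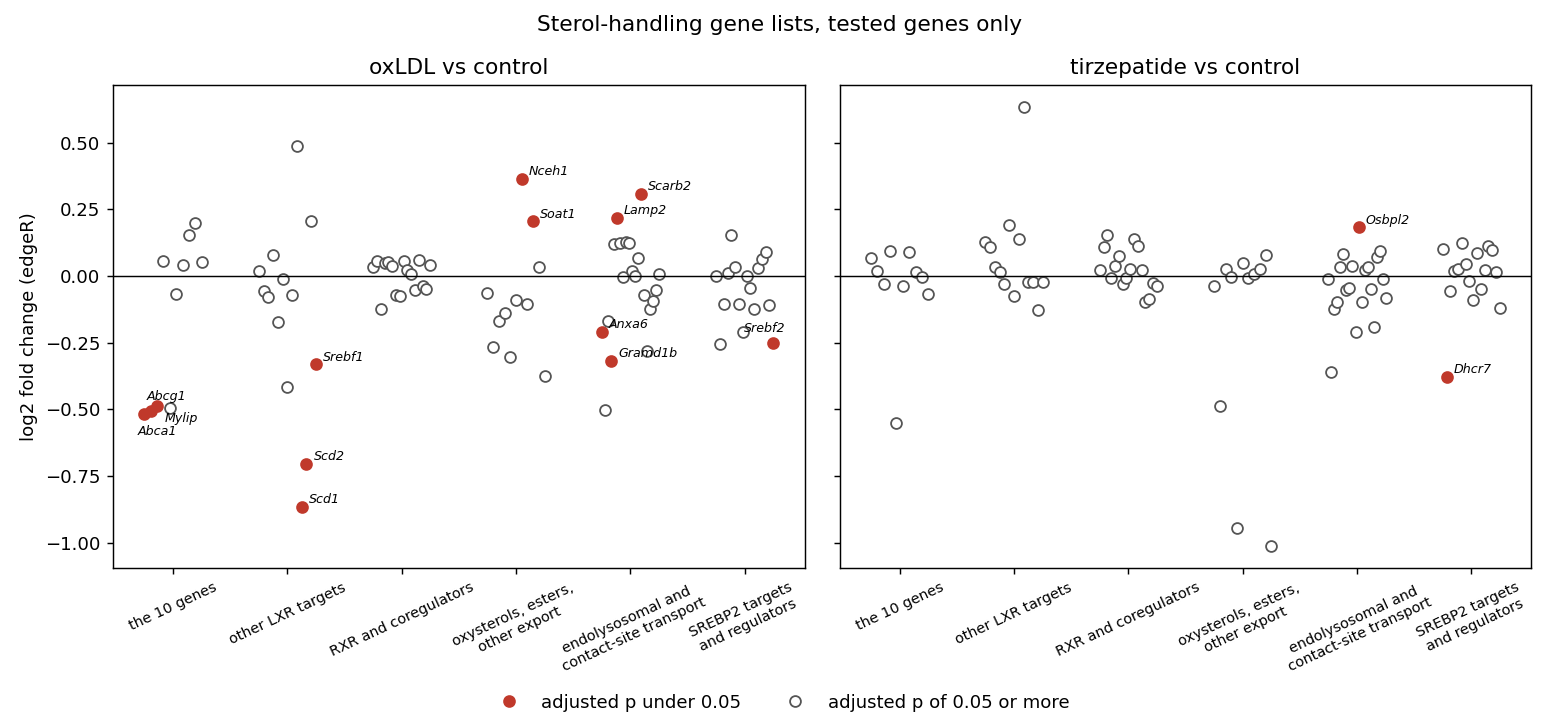
Log2 change from edgeR (vertical axis) of each tested gene of the 10 and of the other sterol-handling lists (horizontal axis), for oxLDL against control on the left and tirzepatide against control on the right, filled and named where the adjusted p is under 0.05. On the left, Abca1, Abcg1 and Mylip lie near -0.50 with Scd2 and Scd1 below them, and on the right only Osbpl2 and Dhcr7 are filled.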

How the data were processed

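Per the labels' protocols, RNA was extracted with Trizol, messenger RNA was captured on beads, and libraries were sequenced on an Illumina NovaSeq X Plus. The expected counts deposited by the authors are fractional estimates, as RSEM gives them, unscaled between libraries. TPM values were deposited by the authors beside them. The submitters' processing notes name RSEM (no version), StringTie 1.3.1, Bowtie2 2.2.8 and fastp 0.18.0, and builds GRCm39 and mm39. Their roles, the annotation release and strandedness are not given in the sources used here. Total counts were 15877278 to 17336019 per library, and 24 pairs within groups differed by more than sampling noise (chi-square per degree of freedom 2.71 to 17.7).

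Here expected counts were rounded and tested with edgeR 4.0.16 (R 4.3.3): genes with too few counts were removed by filterByExpr (minimum count 10), libraries were scaled by TMM, and each comparison came from 1 quasi-likelihood model over the 16 libraries with group means, with Benjamini-Hochberg adjustment over all 11319 tested genes and a threshold of 0.05. The method was tested on simulated data. Standard errors were derived from the F statistic. CPM for correlation used a prior count of 2. Alternatives used limma 3.58.1, DESeq2 1.42.0, other filters and scaling, a replicate block, and left-out libraries. The 10 genes, the 5 other lists and the marker lists were chosen with earlier results of these data known. One gene of the SREBP2 list is not reported here. By rule, named genes outside the 10 are those called after oxLDL, after tirzepatide or after tirzepatide added to oxLDL (at most 3 a list and comparison by p). The 5 most correlated with Abca1 and with Abcg1 are named too. Genes too low to test and genes marked as named after their values were seen lie outside this rule. Promoter sequences and the coordinates of their windows come from RefSeq on GRCm38.p6. No other gene coordinates are given because the reference at hand is of another build than the counts.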

Additional observations from a re-analysis of the deposited data

Results flagged for a closer look

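In 80 sets of 4 libraries (each of the 10 genes, by group, in TPM and in normalised CPM), 5 held a library whose gap to its nearest neighbour exceeded Dixon's 95% limit as a share of the group's range, a size that chance gives in about 1 of 20 sets. Abca1 in combination library 2 was at 815 CPM, above the other 3 combination libraries. Apoe in oxLDL library 4 was at 9.60 TPM, below the other 3 oxLDL libraries, which were nearly equal. Apoe in tirzepatide library 2 was at 6.67 TPM, the lowest Apoe level of all libraries. Npc2 in control 2 was at 228 CPM, above the other 3 controls. Lpcat3 in control 4 was at 50.0 TPM, the highest of its 16 values.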

How the results depend on the processing

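The labels do not say that the library numbers pair libraries across groups, and the correlations do not settle it. Of 24 same-numbered pairs, 5 had deviations correlated above 0.1 (range -0.127 to 0.189). Of the 16 libraries, 6 correlated best with their own number. With the replicate block, Npc1 after oxLDL (0.20, adjusted p = 0.0354 by edgeR) and Mylip in the combination against tirzepatide (-0.27, adjusted p = 0.0439) passed, and no call among the 10 genes was lost. The number of all genes called after oxLDL was 734 with the block against 514, and after tirzepatide 750 against 462.

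Of 1490 values for the 10 genes under the alternatives, 1411 kept their direction and side of the threshold, 16 newly passed, 9 no longer passed and 54 turned sign, all of the last for uncalled genes; no cause was tested. Leaving out 1 library gave 1 (without combination 4) to 3 (without combination 2) of the 10 called in the combination against tirzepatide. Over all genes, 58 of 11412 were called without combination 4 and 444 of 11406 without combination 2. With no filter on low counts 1 of the 10 (Apoe) was called after tirzepatide, beside 548 of 16115 genes. Mylip in the combination against control also missed the threshold with only the groups compared (-0.29, adjusted p = 0.107 by edgeR), without controls 1 and 2 (-0.24, adjusted p = 0.134) and without the libraries numbered 1 (-0.22, adjusted p = 0.160). Over all genes the counts called spanned 307 to 734 after oxLDL, 58 to 444 (174 as reported) in the combination against tirzepatide, 119 to 750 after tirzepatide, 2 to 32 (4) in the combination against oxLDL, 410 to 1450 (1012) in the combination against control and 1 to 58 (8) for the interaction. The lowest counts came without control 2 after oxLDL and after tirzepatide, and without combination 4 in the combination against tirzepatide.

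Values that turned sign without controls 1 and 2 were Nr1h3 after oxLDL (-0.014), Abcg1, Mylip and Rxra after tirzepatide (-0.023, 0.012 and -0.050), and Lpcat3 and Rxra in the combination against control (-0.014 and -0.0089). Without the libraries numbered 1 they were Abcg1 and Rxra after tirzepatide (-0.0035 and -0.035), Nr1h2, Apoe and Lpcat3 in the combination against oxLDL (0.029, 0.15 and 0.011) and the Nr1h3 interaction (-0.15). With quantile normalisation they were Abcg1 after tirzepatide (-0.014) and the Npc2 interaction (0.012). Leaving out 1 library at a time, the log2 changes of uncalled genes that crossed 0 ranged as follows. After oxLDL, Nr1h3 ranged from -0.052 to 0.11. After tirzepatide, Abcg1 ranged from -0.016 to 0.040, Nr1h2 from -0.14 to 0.026, Nr1h3 from -0.0019 to 0.20, Npc1 from -0.055 to 0.021 and Rxra from -0.035 to 0.044. In the combination against tirzepatide, Nr1h2 ranged from -0.10 to 0.037, Nr1h3 from -0.0084 to 0.20, Apoe from -0.14 to 0.14 and Npc2 from -0.0052 to 0.056. In the combination against oxLDL, Abcg1 ranged from -0.054 to 0.17, Nr1h2 from -0.072 to 0.025, Apoe from -0.13 to 0.080 and Lpcat3 from -0.054 to 0.00021. For the interaction, Abcg1 ranged from -0.070 to 0.15, Nr1h2 from -0.058 to 0.11, Nr1h3 from -0.047 to 0.16 and Npc2 from -0.055 to 0.0061. Depth limits Apoe and Nr1h3 most, with 62 to 178 and 78 to 129 counts per library.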
